A study of Mus musculus with 54 samples.

Results

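The genes described here are the kinesins, 41 entries of each of 2 deposited expression tables of mouse embryonic stem (ES) cells. They were chosen by name alone: a symbol of Kif and a number, with or without a letter a, b or c, or of Kifc and a number. They made up 41 of 38363 entries in the table of retinoic acid (RA) differentiation and 41 of 39067 entries in the table of LIF withdrawal and derived lineages. The RA table held 8 libraries of 46C cells, an ES cell line of strain 129/Ola with a GFP reporter in Sox1, moved from medium with LIF and 2i inhibitors to medium with 2 µM RA for 2 or 4 days. Cells were wild type (WT) or carried a 58 kb deletion at Haunt, a long non-coding RNA gene beside the HOXA cluster (Haunt 58 kb KO), with 2 libraries for each genotype and day, named WT-1, WT-2, KO-i and KO-j. The labels do not say whether libraries came from separate cultures, or what the letters i and j stand for, so p-values measure only the spread between these libraries, which may be technical. The second table held 7 columns of WT cells: means of 3, 2 and 3 libraries at day 0, day 2 and day 6 of LIF withdrawal, and 1 library each at day 4, of neural stem cells (NSC), of mesendoderm (ME) and of neural progenitor cells (NPC). NPC were sorted from 46C cells by the Sox1 reporter, NSC were such sorted cells kept in culture with EGF and FGF-2, and ME were sorted from a line with a reporter in T. ES lines differed between columns (CJ7 and JF4 at day 0, J1 and CJ7 at day 2, CJ7 at day 4, all of these at day 6). The lineages came from the reporter lines, so line cannot be told apart from day or from lineage in this table. Another 34 of the 54 samples were not analysed here.

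Kinesins are motor proteins that use ATP to move along microtubules or to take microtubule ends apart. Some build, align and divide the mitotic spindle and are made mainly in dividing cells, with mRNA levels that peak late in the cell cycle. Others carry vesicles, organelles, mRNA and ciliary components, and are best known for transport along the axons of neurons.

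Depth, read from the steps between low values, was about 9020000 to 16400000 reads in the RA libraries and 27700000 to 40600000 in the 4 single libraries of the second table. These estimates are approximate, since each rests on 22 to 63 entries in the RA libraries and 9 to 22 in the others. Values were taken as FPKM, a level per length of transcript, though no header names the unit. Comparing levels of different genes within a table rests on that reading. Across 15705 genes the libraries of a group correlated at r = 0.973 to 0.984. The deleted gene, listed as Gm15055, stood at 128 and 142 FPKM for WT against 1.13 for KO-i and 0.00 for its counterpart KO-j on day 2, and 31.8 and 40.6 in WT and 3.08 and 0.447 in KO at day 4. Markers of the pluripotent ES cell summed to 784 to 1704 FPKM at day 2, with KO-i lowest, and to 129 to 210 at day 4, where 6 of 8 fell in each genotype. Genes on chromosome 1 stood apart in KO-i, as given below with the kinesins that lie there.

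Of the 41 kinesins, 35 reached 1 FPKM in at least 2 RA libraries and were tested. Kif12, Kif19a, Kif27, Kif6 and Kif9 stayed between 0.00 and 1.00 FPKM, and Kif2b, a kinesin-13 depolymerase, was listed at 0 in every column of both tables. The highest kinesins over the 8 RA libraries were all mitotic: Kif20a (mean 69.0 FPKM), Kifc1 (62.6), Kif22 (44.3), Kif2c (44.0) and Kif18b (38.2). Kif13b, a kinesin-3 that carries vesicles, was the highest outside mitosis at 30.7 FPKM.

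Between RA day 2 and day 4, mitotic kinesins were lower in both genotypes. All 13 tested mitotic kinesins had lower means at day 4, in WT with a median log2 difference of -0.31 and in KO of -0.52, against a median of 0.04 over all genes tested in each. The difference passed the test for 5 of 13 in WT (Kif2c, Kif14, Kif18b, Kif22 and Kifc5b) and 8 of 13 in KO (Kif2c, Kif23, Kif22, Kif20a, Kif18b, Kifc1, Kif15 and Kif14), and none rose. Of all 35 kinesins, 2 rose and 7 fell in WT, where 25.3% of all genes passed (14.4% higher and 10.9% lower). In KO 2 rose and 9 fell, where 17.8% of all genes passed (10.0% higher and 7.81% lower). Both genotypes called 7 kinesins, that is 7 of the 9 in WT and 7 of the 11 in KO. Day 2 and day 4 values did not overlap for 28 of 35 kinesins in WT, where this held for 68.8% of all genes, and for 27 in KO, where it held for 59.8%. The test was limma on log2(FPKM + 1) over all 15705 genes with Benjamini-Hochberg adjustment at 0.05, and log2 differences, given with their standard errors, are on that scale. In these bulk samples, fewer cells of a type and less RNA per cell cannot be told apart.

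**Figure D1:**
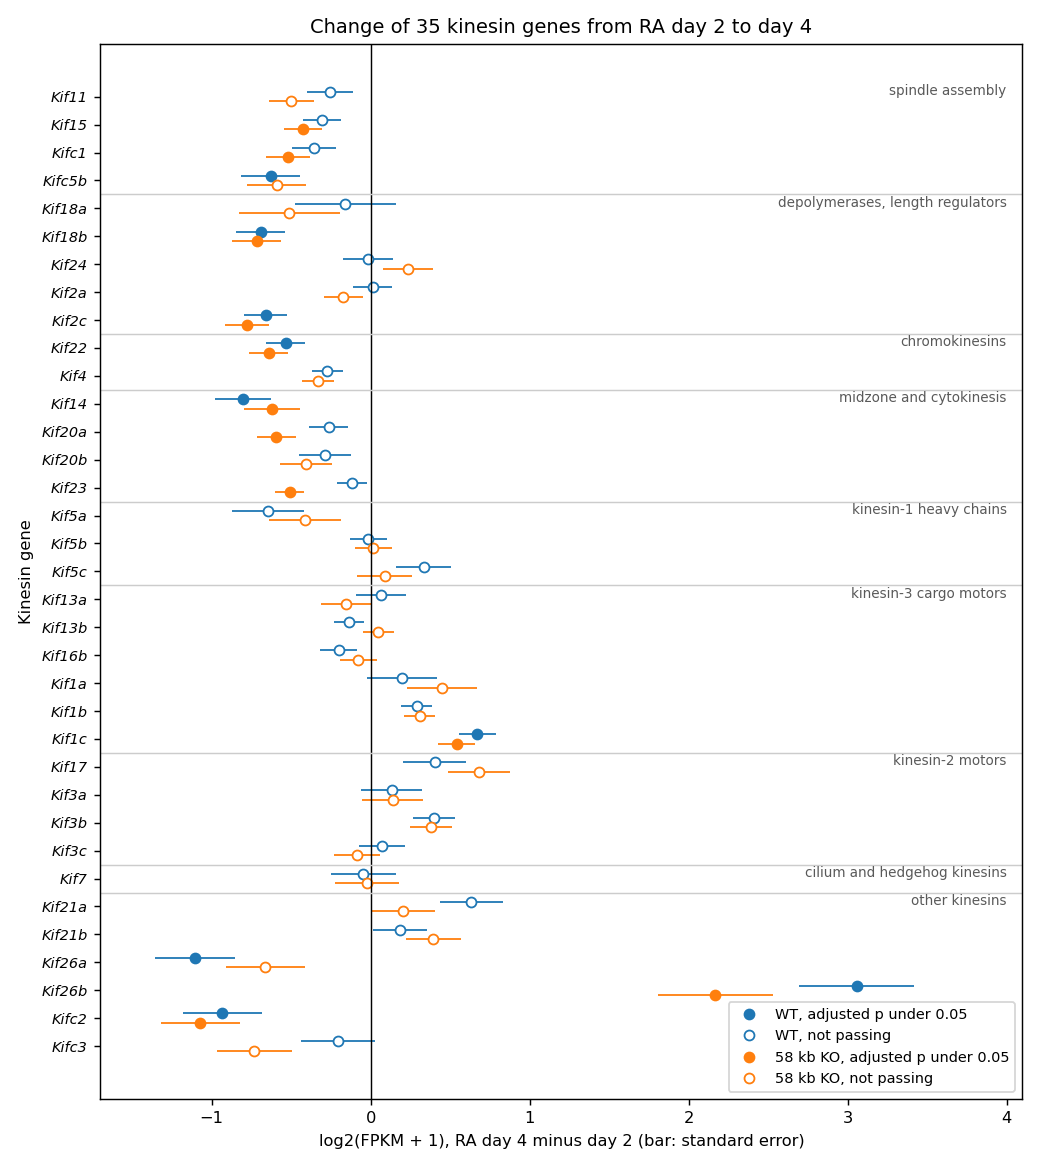
Difference in log2(FPKM + 1) between RA day 4 and day 2 for the 35 kinesin genes tested, grouped by role, in WT (blue) and Haunt 58 kb KO (orange). Bars are standard errors of the limma fit and filled points have an adjusted p under 0.05. Every mitotic kinesin (Kif11 to Kif23, without Kif24 and Kif2a) lies left of 0, and Kif26b lies far to the right.

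These counts rest on 2 libraries a group. Without WT-1 or WT-2 of day 2 the WT count of 9 became 3 or 2, and without WT-1 or WT-2 of day 4 it became 3 in each case. The share of all genes passing fell too, from 25.3% to between 9.51% and 12.2% in these 4 fits. The KO count of 11 fell in every fit that left out 1 library, and fewer of all genes passed in KO in each of these fits too. Over these fits the median difference of the mitotic kinesins in KO ran from -0.42 without KO-i of day 4 to -0.60 without KO-j of day 4. Fitted on the 4 KO libraries alone, 0 kinesins passed in KO, with a smallest adjusted p of 0.059. Of all genes, 17.8% passed in KO with every library, 6.24% without KO-j of day 2 and 2.52% in the fit of KO libraries alone. The 5 mitotic falls in WT became 0 without WT-1 or WT-2 of day 2 or WT-1 of day 4, and 2 without WT-2 of day 4. The 8 in KO became 4 without KO-i of day 2, 0 without KO-j of day 2, 1 without KO-i of day 4 and 5 without any 1 WT library. The direction held better than the calls: in the KO contrast all 13 mitotic kinesins stayed lower in each of these fits, and in WT at least 12 did. Subtracting each library's median moved the all-gene median in WT from 0.04 to -0.06 and the share of passing genes that were higher from 56.9% to 43.1%. It left all 13 mitotic kinesins lower, with 7 passing in WT and 10 in KO. Of all genes, 2334 then fell in WT and 1571 in KO, against 1713 and 1226 in the main fit.

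Kinesins of spindle assembly slide microtubules apart or together. Kif11 (Eg5), the plus-end motor that separates the spindle poles, was at 16.1 and 18.7 FPKM in the WT libraries and 15.8 and 19.4 in KO at day 2, then 14.2 and 14.6 in WT and 11.2 and 13.1 in KO at day 4. Its groups did not overlap between days, but neither difference passed (-0.26 ± 0.14, adjusted p = 0.230 in WT and -0.50 ± 0.14, adjusted p = 0.051 in KO). Kif15, which can share the work of Kif11, was at 11.8 and 12.2 in WT and 13.2 and 13.5 in KO at day 2, and at 8.82 and 10.2 in WT and 9.30 and 10.0 in KO at day 4. It fell in KO (-0.43 ± 0.12, adjusted p = 0.048), but passed in none of the 8 fits that left out 1 library.

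Kifc1, the minus-end motor that draws spindle poles together, was at 71.2 and 67.7 FPKM in the WT libraries and 69.4 and 80.3 in KO at day 2. At day 4 it read 54.3 and 53.7 in WT and 45.3 and 59.2 in KO, where it fell (-0.52 ± 0.14, adjusted p = 0.042). That call passed in 1 of the 8 fits that left out 1 library, and the difference was -0.33 without KO-i of day 4. Kifc5b, a near copy of Kifc1 whose reads the counting could have split with it, went from 31.4 and 30.9 to 19.5 and 20.0 in WT (-0.63 ± 0.19, adjusted p = 0.045) and from 26.6 and 34.9 to 16.5 and 23.9 in KO (-0.59 ± 0.19, adjusted p = 0.067). Every day 4 value of both genes lay below every day 2 value of its genotype.

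Among the depolymerases and length regulators, the 2 most abundant fell in both genotypes. Kif2c (MCAK), which corrects faulty kinetochore attachments, was at 56.3 and 55.0 FPKM in the WT libraries and 51.5 and 56.6 in KO at day 2, and 32.6 and 37.2 in WT and 27.4 and 35.2 in KO at day 4. Its log2 difference was -0.66 ± 0.14 in WT (adjusted p = 0.013) and -0.78 ± 0.14 in KO (adjusted p = 0.012). Kif18b, which limits the length of astral microtubules, went from 49.6 and 46.4 to 29.7 and 28.9 in WT and from 43.1 and 50.9 to 24.1 and 32.8 in KO. Its difference was -0.69 ± 0.15 in WT (adjusted p = 0.017) and -0.72 ± 0.15 in KO (adjusted p = 0.022).

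Kif18a, which dampens chromosome movements at metaphase, was low and scattered, between 1.06 and 3.14 FPKM, and did not pass. Kif2a, a depolymerase also used outside mitosis, stayed between 9.28 and 12.0 FPKM, with differences of 0.01 ± 0.12 in WT and -0.17 ± 0.12 in KO. Kif24, which acts at centrioles, stayed between 5.58 and 8.86 FPKM and did not pass.

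The chromokinesins bind chromosome arms and push them towards the spindle equator. Kif22 (Kid) was at 53.4 and 56.4 FPKM in the WT libraries and 47.3 and 56.2 in KO at day 2, and 34.7 and 40.8 in WT and 33.2 and 32.2 in KO at day 4. It fell in both genotypes (-0.53 ± 0.12, adjusted p = 0.018 in WT and -0.64 ± 0.12, adjusted p = 0.015 in KO). Kif4 moved less, from 19.2 to 20.3 FPKM over the 4 libraries of day 2 to 15.3 to 16.2 over those of day 4, and did not pass (adjusted p = 0.083 in WT and 0.056 in KO).

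Kinesins of the midzone and cytokinesis build the central spindle on which the cell divides. Kif14, which recruits citron kinase, was at 10.9 and 10.3 FPKM in the WT libraries and 13.0 and 9.57 in KO at day 2, and 6.08 and 5.22 in WT and 7.71 and 6.17 in KO at day 4. It fell in WT (-0.80 ± 0.18, adjusted p = 0.016). In KO it lay at the edge of the threshold (-0.62 ± 0.18, adjusted p = 0.0499) and passed in none of the 8 fits that left out 1 library.

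Kif20a (Mklp2), which brings the Aurora B complex to the midzone, was at 77.1 and 77.0 FPKM in the WT libraries and 82.7 and 79.3 in KO at day 2. At day 4 it read 61.4 and 66.7 in WT, which did not pass (adjusted p = 0.160), and 47.3 and 60.2 in KO, where it fell (-0.59 ± 0.12, adjusted p = 0.020). Kif23 (Mklp1), the motor of the centralspindlin complex, went from 35.1 and 36.3 to 33.0 and 32.7 in WT (-0.12 ± 0.09, adjusted p = 0.387) and from 38.5 and 40.7 to 26.7 and 28.4 in KO (-0.51 ± 0.09, adjusted p = 0.013). Kif20b was between 5.25 and 8.19 FPKM and did not pass. For Kif23 the 2 genotypes' changes differed by -0.39 ± 0.13, which did not pass when adjusted over all genes (limma, unadjusted p = 0.018, adjusted p = 0.814), so a genotype-specific fall was not shown. No kinesin passed this test of the difference between genotypes (0% of all genes did), and Kif23 was the 1 of 35 with an unadjusted p under 0.05, against 5.56% of all genes.

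**Figure D2:**
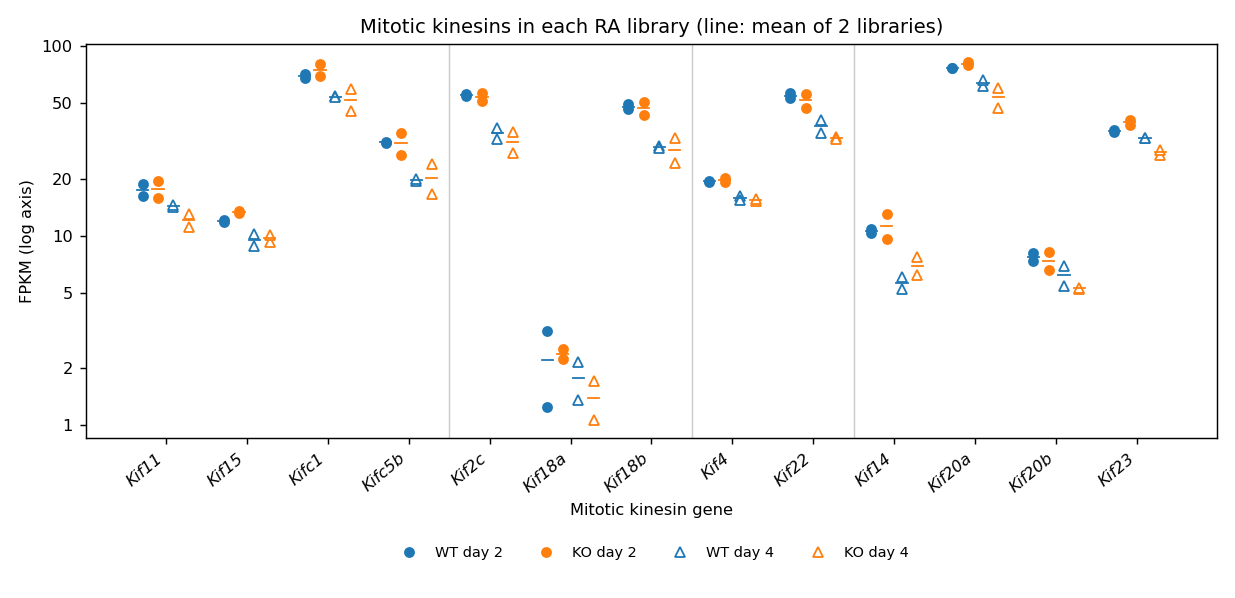
FPKM (log axis) of the 13 expressed mitotic kinesins in each of the 8 RA libraries, with WT in blue, KO in orange, day 2 filled and day 4 open, and a line at the mean of 2 libraries. Vertical lines separate spindle assembly, depolymerases and length regulators, chromokinesins, and midzone and cytokinesis. For every gene except Kif18a in WT, both day 4 points lie below both day 2 points of the same genotype.

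Since the tested mitotic kinesins moved together, the sequence around kinesin start sites was read from RefSeq (GRCm38.p6). It held windows from 250 bases before to 50 after the start for 33 of the 41 kinesins and 13 of the 14 mitotic ones. Those 13 are not the 13 tested: they lack Kif20a and include Kif2b, which was listed at 0 in every column and holds CCAAT. Promoters of many late cell cycle genes pair a CCAAT box with a cell cycle homology region (CHR), written here as TTTGAA or TTCGAA, both searched on both strands. A CHR stood in 11 of 13 mitotic kinesins (84.6%), 4 of 20 others (20.0%) and 21.7% of 27025 genes. CCAAT stood in 69.2% of the mitotic kinesins, 35% of the others and 41.1% of all genes. The E2F motif, as TTTCGCGC, TTTGGCGC or TTTCCCGC on either strand, stood in Kif15 and Kif18a alone among the kinesins and in 2.12% of all genes. Both motifs stood in 8 of 13 mitotic kinesins (61.5%), in 3 of 20 others (15.0%: Kif24, Kif26b and Kif27) and in 8.61% of all genes. In a narrower window of 70 bases before to 28 after the start, chosen after the sequences were seen, the pair stood in 6 of 13 mitotic kinesins (46.2%), in 0 of 20 others (0.00%) and in 1.10% of all genes, so the absence of the pair from the others depends on that window. These are letter matches, not measured binding sites, and no test was run on them.

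Those 6 windows are printed because they hold the pair of motifs. They lie at chr19:37376312-37376409 (Kif11, plus strand), chr17:33890606-33890703 (Kifc1, minus), chr11:102925097-102925194 (Kif18b, minus), chrX:100625995-100626092 (Kif4, plus), chr7:127042393-127042490 (Kif22, minus) and chr9:61946772-61946869 (Kif23, minus). Kif26b (chr1:178529055-178529152, plus) and Kif1c (chr11:70700478-70700575, plus), which rose, are shown for contrast. Capitals mark CCAAT or its reverse complement ATTGG, and TTTGAA or its reverse complement TTCAAA, and no match overlaps another.
Kif11: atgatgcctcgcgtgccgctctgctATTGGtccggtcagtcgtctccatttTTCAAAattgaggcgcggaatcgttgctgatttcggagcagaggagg
Kifc1: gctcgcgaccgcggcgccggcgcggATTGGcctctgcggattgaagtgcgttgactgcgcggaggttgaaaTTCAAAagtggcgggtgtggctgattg
Kif18b: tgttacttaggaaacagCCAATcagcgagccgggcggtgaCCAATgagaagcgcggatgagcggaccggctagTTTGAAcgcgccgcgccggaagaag
Kif4: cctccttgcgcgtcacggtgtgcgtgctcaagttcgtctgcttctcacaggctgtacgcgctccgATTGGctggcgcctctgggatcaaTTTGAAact
Kif22: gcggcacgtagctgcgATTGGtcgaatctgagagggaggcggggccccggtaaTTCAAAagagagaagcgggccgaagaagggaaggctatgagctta
Kif23: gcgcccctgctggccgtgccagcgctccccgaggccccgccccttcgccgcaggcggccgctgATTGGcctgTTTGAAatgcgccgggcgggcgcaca
Kif26b: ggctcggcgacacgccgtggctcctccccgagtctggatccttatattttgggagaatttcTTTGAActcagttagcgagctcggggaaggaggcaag
Kif1c: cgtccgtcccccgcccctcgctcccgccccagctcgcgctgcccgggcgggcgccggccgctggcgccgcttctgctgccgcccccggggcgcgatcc

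Kif26b holds a CHR with no CCAAT in this window but both motifs in the whole window, and Kif1c holds neither in either window. So the pair also stood in the promoter of a kinesin that rose.

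Among genes that work with the mitotic kinesins, more fell than rose. Of 19 tested partners, 9 fell in WT and 12 in KO, where 10.9% and 7.81% of all genes fell, and none rose. Their medians were -0.35 and -0.53, with 2 of 19 higher at day 4 in WT and 1 in KO. Ect2, which centralspindlin recruits for cytokinesis, fell by 0.83 in each genotype (limma adjusted p = 0.0030 in WT and 0.0065 in KO), and Nusap1, which bundles spindle microtubules, changed by -0.56 in WT (adjusted p = 0.010) and -0.94 in KO (adjusted p = 0.0037). Prc1, which crosslinks the midzone, changed by -0.58 in WT (adjusted p = 0.024) and -0.70 in KO (adjusted p = 0.019). Cenpe, a kinetochore kinesin whose symbol lies outside the name rule, changed by -0.22 in WT (adjusted p = 0.254) and -0.52 in KO (adjusted p = 0.033).

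Of 16 genes of proliferation, 9 fell in WT and 10 in KO and none rose (10.9% and 7.81% of all genes fell), with medians of -0.42 and -0.48. Their summed level was 1503 to 1667 FPKM at day 2 and 1038 to 1169 at day 4, and that of the mitotic kinesins 430 to 472 at day 2 and 271 to 332 at day 4. Markers of other cell types moved between the same days, over which 14.4% of all genes rose in WT and 10.0% in KO. Of 9 markers of extraembryonic endoderm, 8 rose in WT and 4 in KO, with sums of 78.6 to 113 FPKM at day 2 and 363 to 789 at day 4. Of 6 tested markers of neural progenitors and radial glia, 4 rose and 1 fell in each genotype, and of 7 tested neuron markers 3 fell in WT and 2 in KO. The part of these shifts in the change of the kinesins was not tested.

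Kinesins outside mitosis showed no common direction between the days. Of 22 tested, 2 rose and 2 fell in WT and 2 rose and 1 fell in KO, where 25.3% and 17.8% of all genes passed, with a median of 0.07 in each. With each library's median subtracted the medians were -0.03 in WT and -0.01 in KO, so the sign of these medians depends on scaling.

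Kif26b, a kinesin-11 that lacks motor activity and is required for kidney development, had the largest change of all kinesins. Its level was 0.182 and 0.243 FPKM in the WT libraries and 0.507 and 0.338 in KO at day 2, and 6.93 and 11.8 in WT and 3.43 and 8.17 in KO at day 4. All 4 day 2 libraries were under 1 FPKM and all 4 day 4 libraries above 3. It rose by 3.06 ± 0.36 in WT (limma adjusted p = 0.00174) and by 2.17 ± 0.36 in KO (adjusted p = 0.010), a scale that understates the change of a gene this low at the start. The WT rise passed in all 8 fits that left out 1 library and the KO rise in 7 of them, all but the one without KO-j of day 2. The difference between the rises did not pass (-0.89 ± 0.51, adjusted p = 0.904). The files place Kif26b at chr1:180459256-180862988 (mm9).

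Its paralogue Kif26a, which restrains GDNF signalling in enteric neurons, moved the other way. Its level was 5.77 and 10.5 FPKM in the WT libraries and 4.29 and 5.34 in KO at day 2, and 3.09 and 3.10 in WT and 2.46 and 2.86 in KO at day 4. It fell in WT (-1.11 ± 0.25, adjusted p = 0.017), with a difference of -0.72 without WT-2 of day 2, and the call was lost without that library or either WT library of day 4. In KO it was lower without passing (-0.66 ± 0.25, adjusted p = 0.107).

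Kif1c, a kinesin-3 that carries vesicles and mRNA, rose in both genotypes. Its level was 16.9 and 15.7 FPKM in the WT libraries and 19.7 and 19.1 in KO at day 2, and 26.3 and 26.7 in WT and 26.2 and 31.4 in KO at day 4. The rise was 0.67 ± 0.12 in WT (adjusted p = 0.0069) and 0.54 ± 0.12 in KO (adjusted p = 0.022). Kifc2, a C-terminal motor best known from neurons, read 8.73 and 5.09 in WT and 8.98 and 8.04 in KO at day 2, and 3.13 and 2.94 in WT and 4.32 and 2.84 in KO at day 4. It fell by 0.93 ± 0.25 in WT (adjusted p = 0.032) and by 1.07 ± 0.25 in KO (adjusted p = 0.028). For both Kif1c and Kifc2, the call in each genotype was lost in some of the fits that left out 1 library. Over those 8 fits the Kif1c difference ran from 0.62 to 0.72 in WT and from 0.42 to 0.67 in KO. The Kifc2 difference ran from -1.27 to -0.60 in WT and from -1.31 to -0.84 in KO.

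**Figure D3:**
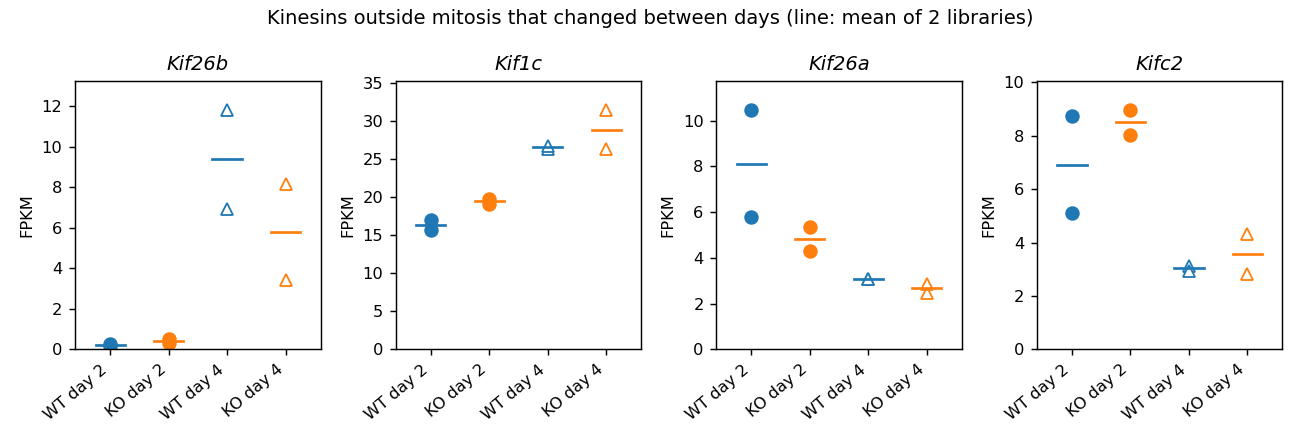
FPKM of the 4 kinesins outside mitosis that passed in at least 1 genotype, in each RA library, with WT in blue, KO in orange, day 2 filled and day 4 open, and a line at the mean of 2 libraries. Kif26b and Kif1c are higher at day 4, and Kif26a and Kifc2 are lower.

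The other transport kinesins did not pass between the days. Kif5b, the kinesin-1 heavy chain found in most cells, stayed at 16.9 to 19.9 FPKM over the 8 libraries, with differences of -0.02 ± 0.12 in WT and 0.02 ± 0.12 in KO. Neuronal Kif5a was 7.69 to 10.0 FPKM at day 2 and 4.81 to 8.93 at day 4 (-0.65 ± 0.23, adjusted p = 0.074 in WT), and Kif5c was 3.42 to 5.89 throughout. The kinesin-2 motors Kif3a, Kif3b and Kif17, which serve the cilium, were higher at day 4 in both genotypes without passing, Kif3b from 7.66 to 8.40 FPKM at day 2 to 10.1 to 12.5 at day 4. Kif7, the kinesin of hedgehog signalling, stayed at 6.02 to 9.32 FPKM.

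Subunits and cargo adaptors of kinesin were counted against the same shares of all genes (25.3% passing in WT and 17.8% in KO). Of 13 tested light chains, accessory subunits and adaptors, 1 rose and 1 fell in WT and 1 rose in KO, with medians of -0.05 and 0.12. The one that rose in both was Klc1, the main light chain of kinesin-1 (0.37, limma adjusted p = 0.029 in WT and 0.35, adjusted p = 0.048 in KO), and the one that fell was the JNK scaffold Mapk8ip2 (-0.94 in WT, adjusted p = 0.013). Of 14 tested genes of dynein, the motor that moves towards microtubule minus ends, and its cofactor dynactin, 2 rose and 1 fell in each genotype.

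The second question of the design was whether the 58 kb deletion changed these genes. No kinesin passed at either day. At day 2, 0 of 35 passed, where 0.0255% of all genes did (4 genes), and 1 of 35 had an unadjusted p under 0.05, against 5.11% of all genes. At day 4, 0 of 35 passed, as did 0% of all genes, and 2 of 35 had an unadjusted p under 0.05, against 14.4% of all genes. WT and KO values did not overlap for 13 kinesins at day 2 and 17 at day 4, where 37.0% and 46.6% of all genes did not overlap. A p that misses the threshold with 2 libraries a group does not show that the genotypes were alike.

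The 2 kinesins with the smallest p at day 4 were lower in KO. Kifc3, a minus-end motor of cell junctions, was at 3.37 and 3.69 FPKM in the WT libraries and 1.21 and 2.43 in KO at day 4 (-0.72 ± 0.23, limma adjusted p = 0.262), and 4.77 and 3.72 in WT and 3.30 and 3.86 in KO at day 2. Kif23 was lower in KO by -0.25 ± 0.09 at day 4 (adjusted p = 0.300) and higher by 0.15 ± 0.09 at day 2 (adjusted p = 0.880). Next came Kif3c, a neuronal kinesin-2, at 4.70 and 4.98 in WT and 3.73 and 3.58 in KO (-0.33 ± 0.15, adjusted p = 0.357), Kif5c at 5.51 and 5.89 against 3.42 and 4.95 (-0.39 ± 0.17, adjusted p = 0.359) and Kif24 at 6.11 and 6.17 against 8.86 and 7.39 (0.35 ± 0.16, adjusted p = 0.359). Without KO-i of day 4 the difference was -0.40 for Kifc3 and -0.17 for Kif5c, and without KO-j -1.04 and -0.60.

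At day 2 the smallest unadjusted p was that of Kif26a (-0.61 ± 0.25, adjusted p = 0.880), followed by Kif1c (0.24 ± 0.12, adjusted p = 0.880). Kif23, Kifc2 (0.30 ± 0.25) and Kif15 (0.14 ± 0.12) came next. For Kif26a, WT-2 at 10.5 FPKM stood apart from WT-1 at 5.77 and KO at 4.29 and 5.34, and without WT-2 the difference was -0.22.

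As a group, 10 of 13 mitotic kinesins had a lower mean in KO than in WT at day 4, with a median of -0.16 against 0.02 over all genes tested. The median depended on single libraries, and the count of lower kinesins fell only without KO-i. In KO-i the mitotic kinesins summed to 271 FPKM, against 323 in KO-j and 320 and 332 in WT, and without KO-i 7 of 13 were lower with a median of -0.02. Without WT-1 the median was -0.05 with 11 of 13 lower, without WT-2 -0.08 with 10 lower, and without KO-j -0.25 with 12 lower. At day 2, 8 of 13 were higher, with a median of 0.03 that became -0.02 with library medians subtracted. Markers of extraembryonic endoderm were also lower in KO at day 4 (9 of 9, with sums of 363 and 427 FPKM in KO against 734 and 789 in WT) and none passed. So were mesendoderm markers (5 of 5 tested, median -0.845) and 5 of 6 tested neural progenitor markers, none passing. Neuron markers were 3 higher and 4 lower, pluripotency markers 3 and 5, and fibroblast and feeder markers 4 and 2. At day 2, 8 of 8 pluripotency markers were lower in KO (median -0.63), none passing. The part of these markers in the kinesin values was not tested.

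Kinesins of chromosome 1 have to be read beside a shift of that chromosome in KO-i. Over 507 genes of chromosome 1 with at least 5 FPKM, the median log2 difference of KO-i from the WT mean was 0.31 at day 2 and 0.29 at day 4, against 0.04 and 0.02 over all chromosomes. In KO-j it was 0.01 and -0.02. Kif21b, a kinesin-4 of microtubule growth control, read 17.9 FPKM in KO-i at day 4 against 12.9 in KO-j and 11.7 and 11.9 in WT. Kif1a, a carrier of synaptic vesicle precursors, read 11.2 in KO-i against 7.23 in KO-j and 7.49 and 7.58 in WT, and Kif14 read 7.71 against 6.17 and 6.08 and 5.22.

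Kif26b, farther along chromosome 1, ran against its neighbours in KO-i at day 4. Genes within 10 Mb of it had medians of 0.41 in KO-i and 0.26 in KO-j above the WT mean, but Kif26b was at -1.19 and -0.14. In KO-j its 8.17 FPKM lay between the WT libraries at 6.93 and 11.8, and KO against WT did not pass (limma adjusted p = 0.434). At day 2 the neighbours had medians of 0.30 in KO-i and 0.37 in KO-j, and Kif26b, under 1 FPKM, was at 0.31 and 0.14. With each chromosome's median subtracted in each library, an alternative added after this shift was seen, 0 kinesins passed between genotypes at either day, and 12 in WT and 14 in KO passed between days. Of all genes, 4136 passed between days in WT under that setting (2335 lower) and 2902 in KO (1699 lower). In the main fit 3973 passed in WT (1713 lower) and 2802 in KO (1226 lower). Between genotypes, 4 of all genes passed at day 2 and 0 at day 4 under that setting. What shifted the chromosome was not tested.

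**Figure D4:**
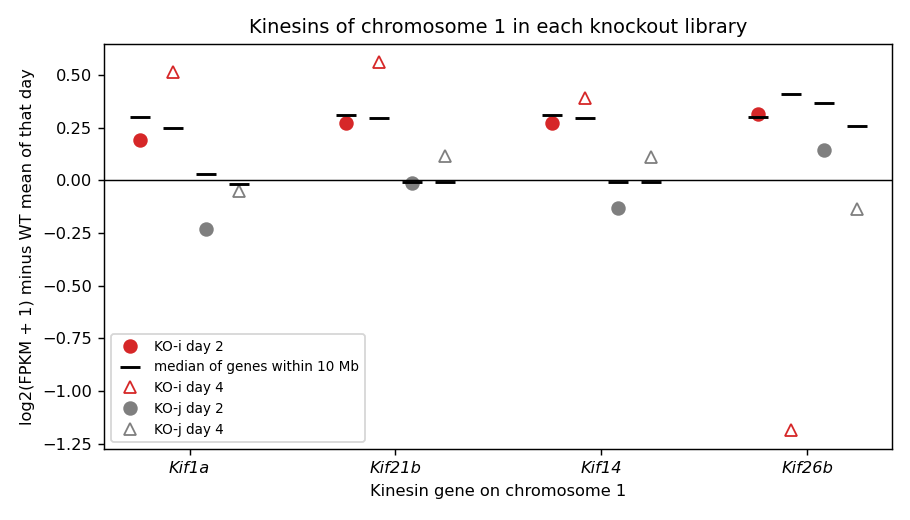
Log2(FPKM + 1) of the 4 kinesins of chromosome 1 in each KO library minus the WT mean of the same day, with KO-i in red, KO-j in grey, day 2 filled and day 4 open. Black bars are medians of the other genes within 10 Mb. The KO-i points of Kif1a, Kif21b and Kif14 lie above 0 at both days, and Kif26b in KO-i at day 4 lies at -1.19.

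The second table shows the kinesins without RA, over LIF withdrawal and in 3 derived lineages. It allows no test, since each column is 1 library or 1 mean, so values over 2-fold from day 0 were counted on the log2(FPKM + 1) scale among 34 kinesins with at least 1 FPKM in some column. All comparisons share the day 0 column. Kinesins past 2-fold were 3 higher and 0 lower at day 2 (4.58% of all genes higher, 5.07% lower), 3 and 0 at day 4 (6.53% and 8.62%), and 5 and 1 at day 6 (11.4% and 6.97%). In the lineages they were 8 higher and 5 lower in NSC (20.5% and 16.5%), 1 and 2 in ME (9.20% and 10.7%), and 9 and 2 in NPC (14.7% and 11.7%). Marker levels differed between columns: pluripotency markers summed to 2472 FPKM at day 0 and 3.00 in NSC, mesendoderm markers to 5.22 at day 0 and 499 in ME, and neural progenitor markers to 3464 in NSC and 1731 in NPC. Neuron markers, with Tubb3 at 109 and Elavl3 at 29.1 FPKM, summed to 672 in NPC, against 109 in NSC, 471 at day 2 and 247 at day 0.

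Most mitotic kinesins had their highest level at day 0. Of 13, 12 were lower at each of days 2, 4 and 6 and in ME, and 11 in NSC and NPC, with medians from -0.24 at day 2 to -0.52 in NSC. Kif11 read 80.3 FPKM at day 0, 58.7, 56.9 and 50.7 at days 2, 4 and 6, and 51.3 in NSC, 52.8 in ME and 56.5 in NPC. Kif22 read 89.8 at day 0 and 63.9 to 72.6 in the other columns, Kif2c 73.4 and 50.8 to 58.4, and Kifc1 73.3 and 42.1 to 65.0. These 4 thus kept more than 40 FPKM in every column, the lineages included.

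Kif20b, needed for abscission and for the polarity of young neurons, went from 80.1 FPKM at day 0 to 52.5 at day 6, 51.5 in ME, 44.1 in NPC and 25.2 in NSC (-1.63 from day 0, the most negative difference of the mitotic kinesins in NSC). Kif18a went from 10.3 to 4.05 at day 6 and 3.61 in ME. Kif23 went from 48.3 to 29.4 in ME, and Kifc5b from 19.8 to 11.8 at day 6. Kif4 and Kif15 went the other way in NPC, at 39.2 against 25.2 and 47.8 against 31.5.

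Of the kinesin-3 cargo motors, Kif1a, Kif1b and Kif1c were above their day 0 level in each of the 6 other columns. Kif1a read 4.78 FPKM at day 0, 27.1, 29.3 and 24.6 at days 2, 4 and 6, 10.5 in ME, 24.8 in NPC and 46.4 in NSC. Kif1b, which carries mitochondria and synaptic vesicle precursors, read 7.19 at day 0, 16.8 at day 6, 26.9 in NPC and 42.1 in NSC. Kif1c read 13.5 at day 0, 35.5 at day 6, 26.2 in ME, 27.1 in NPC and 52.3 in NSC, and so was higher at later times in both tables. Kif13b was lower in the neural columns, at 7.75 FPKM at day 0 against 3.05 in NSC and 2.55 in NPC. Kif13a was between 9.55 and 20.6 FPKM, with its highest level in NSC, and Kif16b between 4.75 and 7.20.

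**Figure D5:**
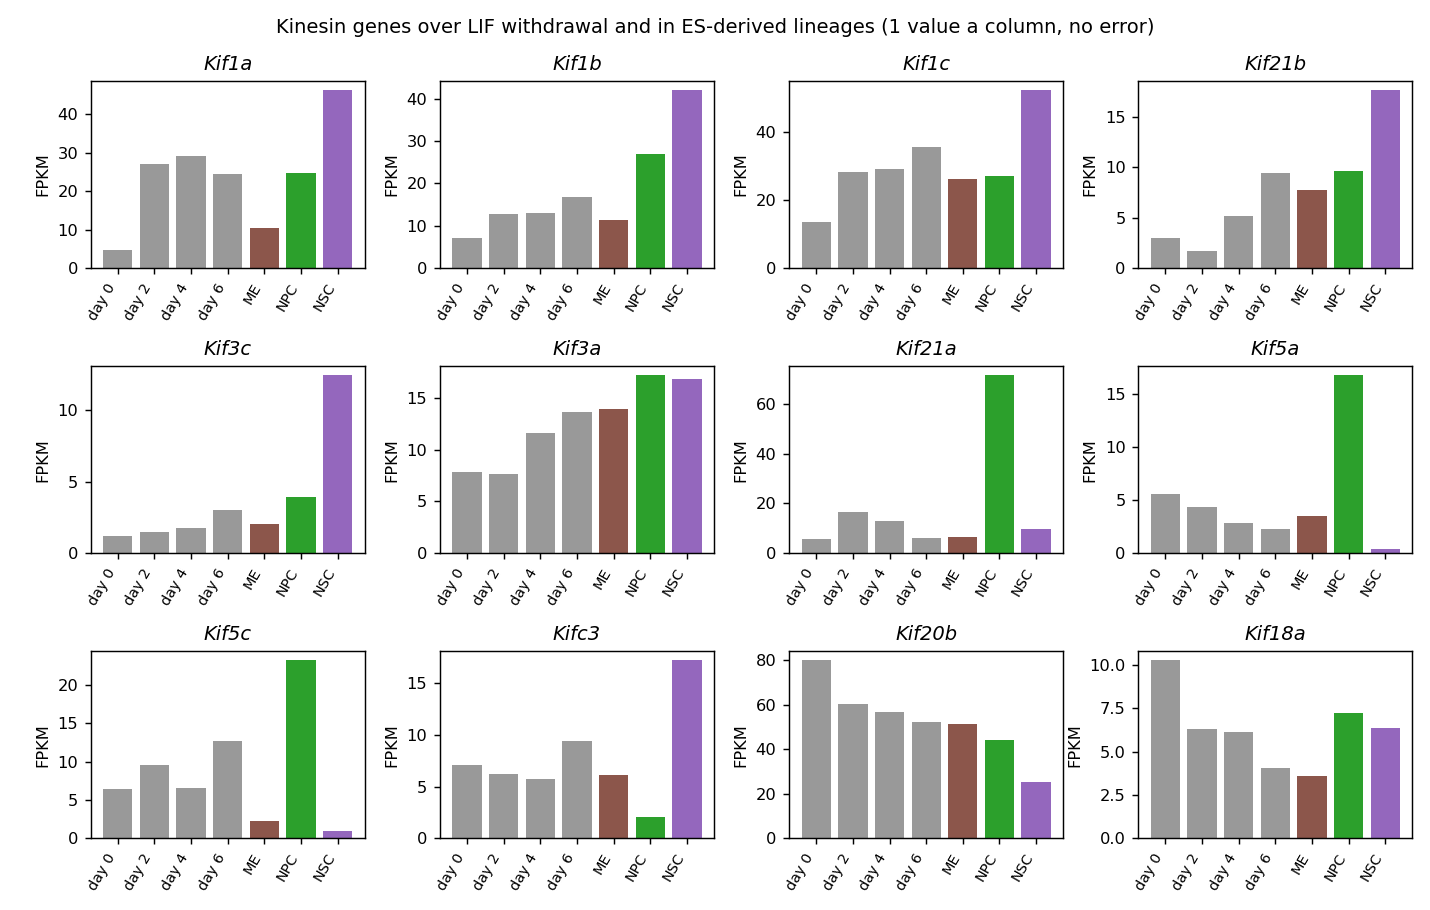
FPKM of 12 kinesin genes at day 0, 2, 4 and 6 of LIF withdrawal (grey), in mesendoderm (ME, brown), neural progenitors (NPC, green) and neural stem cells (NSC, purple), each bar 1 library or the authors' mean, without error. Kif21a, Kif5a and Kif5c are highest in NPC, and Kif1a, Kif1b, Kif1c, Kif21b, Kif3c and Kifc3 in NSC.

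NSC and NPC, both neural, differed most in the neuronal kinesin-1 chains. Kif5a read 5.61 FPKM at day 0, 2.33 at day 6, 3.50 in ME, 0.360 in NSC and 16.8 in NPC, and Kif5c read 6.48, 12.7, 2.25, 0.950 and 23.2 in the same order. NPC exceeded NSC by 3.71 for Kif5a and 3.63 for Kif5c on the log2 scale. Kif5b was the highest kinesin of the table, at 85.5 to 123 FPKM, and was close in the neural columns (123 in NSC and 105 in NPC). Kif21a, a kinesin-4 that stops microtubule growth at the cell cortex, read 5.58 at day 0, 9.64 in NSC and 71.5 in NPC.

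Kif3c, Kif21b and Kifc3 showed the opposite order, with 12.5, 17.7 and 17.2 FPKM in NSC and 3.93, 9.65 and 2.08 in NPC. At day 0 they read 1.18, 2.98 and 7.12. Kif21b was also higher at day 6 (9.44) and in ME (7.74). Kif26b, which rose most in RA, lay between 0.0324 and 1.48 FPKM in this table. It read 0.173 at day 0 and had its highest value at day 6, a log2 difference of 1.08, so it is among those counted past 2-fold there. With 1 library for each lineage, the spread between cultures of these cells is unknown.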

How the data were processed

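RNA-seq was measured in 8 libraries of the RA experiment and in 7 columns of the LIF and lineage table. The deposited values were taken as FPKM, made by the authors, from the values alone, since no file header names the unit. Per the submitters' processing notes, reads of the series were handled with TopHat2 2.0.11 and Bowtie 1.0.0 among other tools, on mm9. The sources used here do not say which step gave the FPKM. Per the labels' protocols, the RA libraries were not made with a kit that marks strand, so reads of a gene and an antisense partner cannot be told apart. The 2 tables were deposited separately, so tests were kept within a table. From the LIF values, 11 entries with a repeated symbol and 1 with a blank value were left out.

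The 15705 genes that reached 1 FPKM in 2 or more RA libraries were fitted together as log2(FPKM + 1) with limma 3.58.1 (R 4.3.3, mean-variance trend), all 4 groups sharing 1 estimate of spread on 4 residual degrees of freedom. Adjusted p-values are Benjamini-Hochberg over all of these genes, at 0.05. The fit was tested on simulated data for KO against WT at day 2 only, with changes larger than most kinesin differences here. That run does not bear on the calls of single kinesins. Summaries and figures used Python 3.11.15.

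Any kinesin could be named. Values per library were given for those passing between days, the 5 smallest p between genotypes, the 3 most positive and 3 most negative differences from day 0 in NSC, NPC, ME and day 6, and the 5 highest means of each table. The members and lists were chosen with earlier results of these data known. Depth was estimated from the spacing of low FPKM values. Alternatives covered the pseudocount, filter, scaling, trend, samples fitted, pairing and each library left out.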

Additional observations from a re-analysis of the deposited data

How the results depend on the processing

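The sample names repeat between days (WT-1, WT-2, KO-i, KO-j), and deviations of same-named libraries correlated at 0.0849 in WT and 0.260 in KO. With 2 libraries a group such a correlation cannot decide whether the names are pairs. The main fit did not use the names. With the name as a replicate block, 14 kinesins passed between days in KO, 11 in WT and 0 for the difference of genotype effects, and of the mitotic kinesins 10 fell in KO and 6 in WT. Of all genes, 3705 passed in KO and 4783 in WT with that block, against 2802 and 3973 in the main fit. The shift of the chromosome 1 median was seen in KO-i at both days and in KO-j at neither. Genes within 10 Mb of Kif26b were higher than in WT in KO-j too, with medians of 0.37 at day 2 and 0.26 at day 4. Between WT and KO within a day no paired analysis was possible because the genotypes share no names. Leaving out 1 library at a time gave 2 to 12 passing kinesins between days in WT (9 with all) and 0 to 9 in KO (11 with all). In KO the kinesin count was 7 with no filter on low values, where 1596 of all genes passed. It was 0 when only the 2 groups compared were fitted, where 396 of all genes passed. Leaving out both KO-i libraries, an alternative added after seeing the data, left 1 KO library a day, so only the effect is given. The median of the mitotic kinesins between days in KO was then -0.53, with 13 of 13 lower. In ME, 6 kinesins in place of 3 lay over 2-fold from day 0 with a pseudocount of 0.1, and the share of all genes at that setting is not given here. Between genotypes, and for the difference of genotype effects, 0 kinesins passed under any setting run. For Kifc2 at day 2 the difference of KO from WT changed sign, from 0.30 to -0.035, without WT-2 of day 2, and was 0.64 without WT-1 of day 2. For the contrast in KO, passing genes that were higher made up 56.2% with the deposited scaling and 43.1% with library medians subtracted. For the kinesins named singly, 454 comparisons with an alternative kept direction and side of the threshold, 103 kept direction and no longer passed, and 1 reversed. The cause was not tested where fewer libraries do not account for it. At an estimated 9020000 to 16400000 reads and 2 libraries a group, Kif18a, with a mean of 1.93 FPKM, had a standard error of 0.32 on the log2 scale, against 0.09 for Kif23.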

Other observations

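Kinesin light chains and cargo adaptors, also varied between columns of the second table. Of 13 with at least 1 FPKM, 6 were over 2-fold above day 0 and 1 below in NSC, where 20.5% and 16.5% of all genes were, and 5 above and 1 below in NPC, where 14.7% and 11.7% of all genes were. Klc1, the main kinesin-1 light chain, read 26.6 FPKM at day 0, 126 in NSC and 106 in NPC. Mapk8ip1, a JNK scaffold that binds kinesin-1, read 4.44 at day 0, 26.5 in NSC and 19.6 in NPC. Klc3, a light chain known from sperm tails, read 10.8 at day 0, 0.414 in NSC and 2.34 in NPC. Of 14 genes of dynein and dynactin, 2 were over 2-fold above day 0 in NSC, 1 in NPC and none below in either. These are values of 1 library or mean each, with no test.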
